A study of Mus musculus with 36 samples.

Results

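The 10 genes described here were measured in the cerebral cortex of mice heterozygous for loss of Chd8 and of matched wild type mice: Cntnap3, Slitrk1, Sybu, Lmo7, Disp3, Ppp1r14c, Gipr, Zbtb8b, Gm1043 and 2600014E21Rik. These 10, of 55359 genes in the count tables, were chosen on measured values of these same libraries, because heterozygous libraries were lower than wild type ones at embryonic day (E) 12.5 and not at later ages. The differences between genotypes are therefore given as a description, with intervals and without a test. At E17.5 the intervals of 2 of the 10, Cntnap3 and Ppp1r14c, still lay below 0, which goes against that description of the set. Tests are given for the change with age within each genotype, the relation to Dlx1 and the difference between sexes. The choice used none of these contrasts as such, but the change with age shares its libraries. The rise of heterozygous mice from E12.5 starts at the low values that chose the genes.

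PolyA-enriched RNA was sequenced from the cerebral cortex at postnatal day (P) 25 and, at the embryonic ages of E12.5 and E17.5, from the dorsal telencephalon, after the medial part had been cut away. All mice were on the C57BL/6J strain, and the 2 genotypes were wild type (WT) and Chd8+/-, called heterozygous below. Each age had 12 libraries, with 6 per genotype and 3 per sex and genotype, and no other allele or agent is given in the labels. According to the labels, the mice were taken as pairs matched for litter and sex, without a record of which libraries form a pair, and each library is a separate numbered sample. RNA was extracted with a micro-scale kit at E12.5 and a mini-scale kit at the later ages, and the kit, the dissection and the age cannot be told apart. Chd8 encodes a chromatin remodeller, and loss of 1 copy in people is a known cause of autism with a large head.

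At E12.5 the dorsal telencephalon consists mostly of dividing progenitors with the first layer of cortical neurons, and by E17.5 most of the excitatory neurons of the cortex have been produced. Inhibitory neurons arise outside it, in the ventral telencephalon, and migrate in. Dlx1 encodes a homeodomain transcription factor of these ventral progenitors and inhibitory neurons, and is used here as a marker of ventral RNA in a library. It does not stand for all interneuron genes, as the slopes below show. In bulk tissue, fewer cells of a type and less RNA per cell cannot be told apart.

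Some homeodomain proteins bind DNA around the 5 letters TAATT, called the core here. It was searched on both strands (AATTA on the other) in the 250 bases before each start site in the RefSeq promoter table, build GRCm38.p6. Of the 10 genes, 7 had an entry, with 10 windows in all, and Disp3, Gipr and Sybu had none. The core stood in 5 of the 10 windows, which belong to Ppp1r14c, Lmo7 and 2600014E21Rik, against 25% of the 32851 windows in the table. The 2 windows of 2600014E21Rik that hold it overlap and share a single match, so that the 5 windows hold 4 distinct matches. The Ppp1r14c window and the first of the 2 Lmo7 windows, which hold 1 match each, and the Slitrk1 window, as an example without a match, are shown 5′ to 3′ in lower case with the core in capitals. The Ppp1r14c window is chr10:3365900-3366149 on the plus strand, with the match starting 171 bases before the start site. The Lmo7 window is chr14:101729678-101729927 on the plus strand, with the match 143 bases before it. The Slitrk1 window is chr14:108914240-108914489 on the minus strand. It holds no TAATT or AATTA but does hold the shorter TAAT, which was not searched.
Ppp1r14c: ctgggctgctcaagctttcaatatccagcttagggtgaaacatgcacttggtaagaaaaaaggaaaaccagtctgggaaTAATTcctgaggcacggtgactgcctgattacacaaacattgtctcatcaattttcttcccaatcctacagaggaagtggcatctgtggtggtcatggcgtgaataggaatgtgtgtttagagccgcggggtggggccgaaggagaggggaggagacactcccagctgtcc
Lmo7: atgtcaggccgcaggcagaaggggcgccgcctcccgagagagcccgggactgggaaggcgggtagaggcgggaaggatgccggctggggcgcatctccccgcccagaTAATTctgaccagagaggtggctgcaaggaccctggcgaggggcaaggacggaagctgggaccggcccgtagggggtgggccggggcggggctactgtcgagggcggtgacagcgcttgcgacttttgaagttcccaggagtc
Slitrk1: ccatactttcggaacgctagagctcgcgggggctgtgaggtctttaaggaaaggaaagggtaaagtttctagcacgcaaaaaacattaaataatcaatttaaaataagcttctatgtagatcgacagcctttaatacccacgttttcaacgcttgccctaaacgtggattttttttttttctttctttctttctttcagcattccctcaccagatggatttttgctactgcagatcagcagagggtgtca
A match of 5 letters is a description of these windows and does not show that a factor binds there.

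Chd8 (ENSMUSG00000053754) was lower in every heterozygous library than in every wild type library of the same age. Its level in CPM (counts of a gene relative to the total of its library, scaled over all 36 libraries by the trimmed mean of M values) was 312 to 331 in wild type and 213 to 232 in heterozygous libraries at E12.5, a log2 fold change of -0.53. Library totals ran from 35330956 to 49561343 reads at E12.5, 23774502 to 36542286 at E17.5 and 25325593 to 108257517 at P25. At E12.5 the summed level of 18 ventral telencephalic and interneuron markers was 29.7 to 367 CPM in wild type libraries. It was 8.99 to 85.4 CPM in heterozygous ones. All 16 of these markers that were tested had a lower estimate in heterozygotes. By edgeR's quasi-likelihood test 1 of them (Sst) was past the threshold, where 0.213% of all genes were called lower. At an unadjusted p under 0.05 there were 2 of the 16, where 9.17% of all genes were lower at that p. The sum of 11 cortical projection neuron markers was 1818 to 2423 CPM in wild type and 1388 to 2127 CPM in heterozygous libraries, with 10 of 11 lower, 0 past the threshold by edgeR's quasi-likelihood test and 7 lower at an unadjusted p under 0.05, against 9.17% of all genes. The sum of 10 dorsal progenitor markers was 2738 to 3025 CPM against 2909 to 3133 CPM, with 2 of 10 lower. Lower estimates were not limited to neuron lists. They were found for 6 of 6 mural and meningeal, 6 of 7 intermediate progenitor and 5 of 6 microglia markers. Endothelial (0 of 5) and erythroid (1 of 6) markers went mostly the other way. The part of either neuron marker list in the values of the 10 genes was not tested, apart from the relation to Dlx1 below.

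All 10 genes passed the filter on low counts at each age. At E12.5 the median log2 fold change of the 10 between heterozygous and wild type libraries was -1.05, with a range from -2.99 to -0.60, against a median of -0.00 over all 20171 genes tested. By edgeR's quasi-likelihood test, 0.213% of all genes tested (43) were called lower in heterozygotes at this age at an adjusted p under 0.05, and 7 of the 10 were among them. The 3 that were not are Gipr, Sybu and Gm1043. All 6 heterozygous libraries lay below all 6 wild type libraries for 7 of the 10, against 0.744% of all genes. Because these values chose the genes, nothing is read from either count. The number of all genes called lower was also unsteady, from 1 to 520 as each of the 12 libraries was left out, 692 with DESeq2 and 1 (Chd8) with Dlx1 as a covariate.

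**Figure D1:**
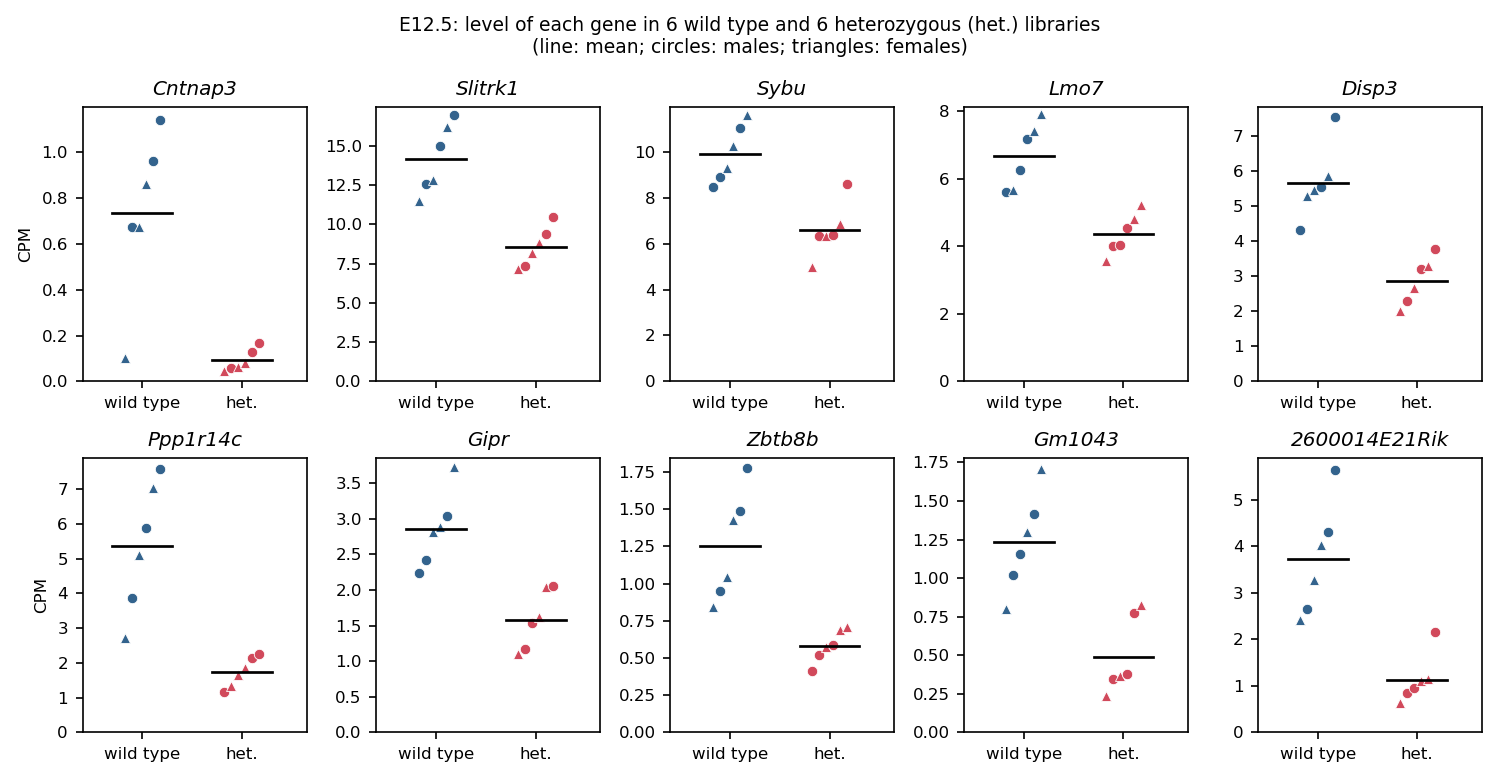
Level of each of the 10 genes in CPM (vertical axes, starting at 0) in the 6 wild type (blue) and 6 heterozygous (red) libraries at E12.5, with circles for males, triangles for females and a line at the mean. The genotypes do not overlap for 7 genes, and for Cntnap3 a single wild type female library lies among the heterozygous ones.

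Cntnap3 (ENSMUSG00000033063) belongs to the contactin-associated proteins, adhesion proteins of the neuronal surface. At E12.5 its level was 0.102, 0.767 and 1.14 CPM (lowest, median and highest of 6) in wild type libraries and 0.0459, 0.0731 and 0.169 CPM in heterozygous ones. Of the wild type libraries, 5 lay between 0.672 and 1.14 CPM, well above all heterozygous libraries, and female 3 lay among them at 0.102 CPM. These are small numbers, 4 to 54 reads in wild type and 2 to 7 in heterozygous libraries. The log2 fold change was -2.99 (SE 0.43, 95% interval -3.92 to -2.07).

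Slitrk1 (ENSMUSG00000075478) encodes a transmembrane protein with leucine-rich repeats that acts in neurite growth and synapse formation. Its level at E12.5 was 11.5, 13.9 and 16.97 CPM in wild type and 7.15, 8.49 and 10.5 CPM in heterozygous libraries. The genotypes did not overlap, and the highest heterozygous library was close to the lowest wild type one. This gave a log2 fold change of -0.73 (SE 0.11, interval -0.96 to -0.50).

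Sybu (ENSMUSG00000022340) encodes syntabulin, an adaptor that links cargo to kinesin for transport along axons. In the E12.5 libraries it stood at 8.47, 9.77 and 11.6 CPM in wild type and 4.96, 6.36 and 8.60 CPM in heterozygous libraries. Heterozygous male 2 lay just above the lowest wild type library, and the other 5 lay below all of them. The log2 fold change of -0.60 (SE 0.12, interval -0.85 to -0.35) was the smallest of the 10.

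Lmo7 (ENSMUSG00000033060) encodes a LIM domain protein found at cell junctions and in the nucleus. Its level was 5.60, 6.71 and 7.90 CPM in wild type and 3.57, 4.30 and 5.23 CPM in heterozygous libraries. There was no overlap. The fitted log2 fold change was -0.61 (SE 0.11, interval -0.85 to -0.38).

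Disp3 (ENSMUSG00000041544) encodes a membrane protein with a sterol-sensing domain, of the family of Dispatched and Patched in Hedgehog signalling. It was at 4.31, 5.50 and 7.55 CPM in wild type and 2.00, 2.95 and 3.77 CPM in heterozygous libraries. The genotypes did not overlap, and the heterozygous mean was 50.7% of the wild type mean. On the log2 scale the difference was -0.99 (SE 0.16, interval -1.33 to -0.65).

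Ppp1r14c (ENSMUSG00000040653) encodes an inhibitor of protein phosphatase 1. Its level was 2.703, 5.49 and 7.57 CPM in wild type and 1.15, 1.75 and 2.25 CPM in heterozygous libraries. The wild type libraries were spread widely, with female 3 lowest, yet none reached the heterozygous range. The log2 fold change was -1.64 (SE 0.25, interval -2.18 to -1.09).

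Gipr (ENSMUSG00000030406) encodes the receptor of the incretin hormone GIP, a receptor coupled to G proteins. It was at 2.24, 2.85 and 3.72 CPM in wild type and 1.10, 1.58 and 2.05 CPM in heterozygous libraries. The ranges lay side by side without overlap. This gave a log2 fold change of -0.85 (SE 0.17, interval -1.22 to -0.47).

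Zbtb8b (ENSMUSG00000048485) encodes a nuclear protein with a BTB domain and zinc fingers. Its level was 0.841, 1.24 and 1.78 CPM in wild type and 0.411, 0.579 and 0.711 CPM in heterozygous libraries, without overlap. The fitted log2 fold change was -1.11 (SE 0.21, interval -1.56 to -0.65).

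2600014E21Rik (ENSMUSG00000100303) is annotated as a long non-coding RNA. It was at 2.42, 3.65 and 5.65 CPM in wild type and 0.623, 1.03 and 2.15 CPM in heterozygous libraries. Heterozygous male 2, at 2.15 CPM, stood apart from the other 5 heterozygous libraries, which reached 1.15 CPM, and still lay below all wild type libraries. On the log2 scale the difference was -1.73 (SE 0.27, interval -2.31 to -1.14).

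Gm1043 (ENSMUSG00000117286) is a predicted protein-coding gene. It was at 0.802, 1.23 and 1.71 CPM in wild type and 0.236, 0.374 and 0.826 CPM in heterozygous libraries. Heterozygous female 3 lay just above the lowest wild type library, and the other 5 lay below all of them, male 2 closest at 0.773 CPM. The log2 fold change was -1.35 (SE 0.30, interval -1.99 to -0.70).

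Some of these counts touch other genes. In the GENCODE M21 annotation, 29.8% of the exon bases of Gm1043 are shared with Jakmip1 on the same strand, so its reads are uncertain. Jakmip1 itself was at 0.346 to 0.931 CPM in wild type and 0.193 to 0.482 CPM in heterozygous libraries at E12.5, a log2 fold change of -0.76 with an adjusted p of 0.228 by edgeR's quasi-likelihood test. On the opposite strand, Gm26752 covers 29.2% of the exon bases of Ppp1r14c, A930017M01Rik covers 2.69% of those of Sybu and Gm18494 covers 2.07% of those of 2600014E21Rik. No label or note says whether strand was used in the counting, so reads of such partners cannot be told apart. At E12.5 A930017M01Rik was at 0.450 to 0.931 CPM in wild type and 0.225 to 0.749 CPM in heterozygous libraries. Its log2 fold change was -0.76, with an adjusted p of 0.110 by edgeR's quasi-likelihood test. Gm18494 had 0 to 1 reads per library at that age, and no level is given for Gm26752.

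At the later ages the differences between genotypes were small for most of the 10. The intervals here come from fits without pairing of the libraries, and intervals with pairing are not given. At E17.5 the median log2 fold change was -0.01, and the 95% interval of 8 of the 10 included 0. The other two were Cntnap3, at -0.32 (interval -0.62 to -0.02), and Ppp1r14c, at -0.31 (interval -0.48 to -0.15). Cntnap3 was at 7.15, 9.99 and 13.4 CPM in wild type and 6.97, 7.67 and 11.4 CPM in heterozygous libraries at E17.5, with wide overlap. Ppp1r14c was at 43.9, 61.4 and 65.9 CPM in wild type and 44.1, 47.2 and 50.5 CPM in heterozygous libraries, where a single low wild type library carried the overlap. At P25 the median was 0.05 and the interval included 0 for all 10, from Disp3 at -0.10 (interval -0.22 to 0.02) to Zbtb8b at 0.20 (interval -0.10 to 0.50).

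**Figure D2:**
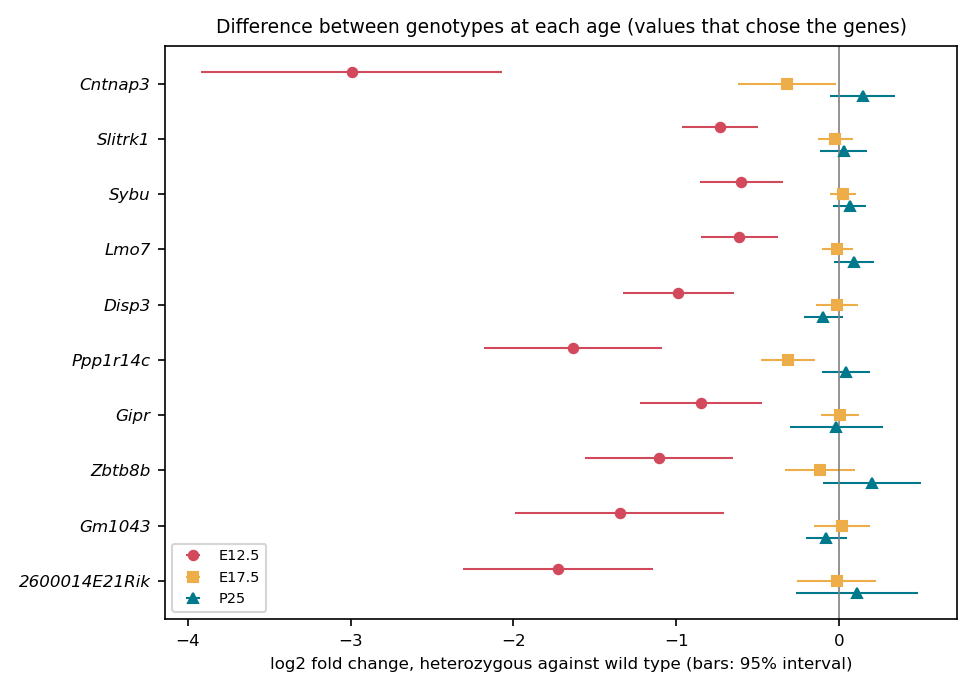
Log2 fold change of each of the 10 genes, heterozygous against wild type (horizontal axis), with red circles for E12.5, yellow squares for E17.5 and blue triangles for P25, each from 12 libraries with its 95% interval. The genes were chosen on these values: all 10 intervals lie below 0 in the E12.5 libraries, while 8 of those for E17.5 and all 10 of those for P25 include 0.

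The replicates also spread more at E12.5. The standard deviation between libraries of 1 genotype, of the mean log2 level over the 10 genes, was 0.259 in the E12.5 libraries, 0.0149 in those of E17.5 and 0.0610 in those of P25. The mean level of the 10 genes at E12.5 therefore carries a larger error than at later ages. Read counts were also lower at E12.5 for most of the 10. Gipr is an exception, with 51 to 155 reads at E12.5 and 45 to 168 at P25.

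Between E12.5 and E17.5 all 10 genes rose in both genotypes by edgeR's quasi-likelihood test over 22535 genes, with the 36 libraries in 1 fit. Of all genes tested, 36.7% were called higher and 36.2% lower over this interval in wild type mice, and 38.1% higher and 36.8% lower in heterozygous mice. In wild type mice the log2 fold changes ran from 1.51 (Zbtb8b) to 5.23 (Gm1043) with a median of 3.64, and the largest adjusted p was 1.6e-10. In heterozygous mice, from their lower start, they ran from 2.49 (Zbtb8b) to 6.60 (Gm1043) with a median of 4.79. Both rises start from E12.5 values that the choice used, low ones in heterozygotes, so the calls in heterozygous mice are given as a description. That each rise was larger in heterozygotes repeats the difference at E12.5 that chose the genes and was not tested.

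**Figure D3:**
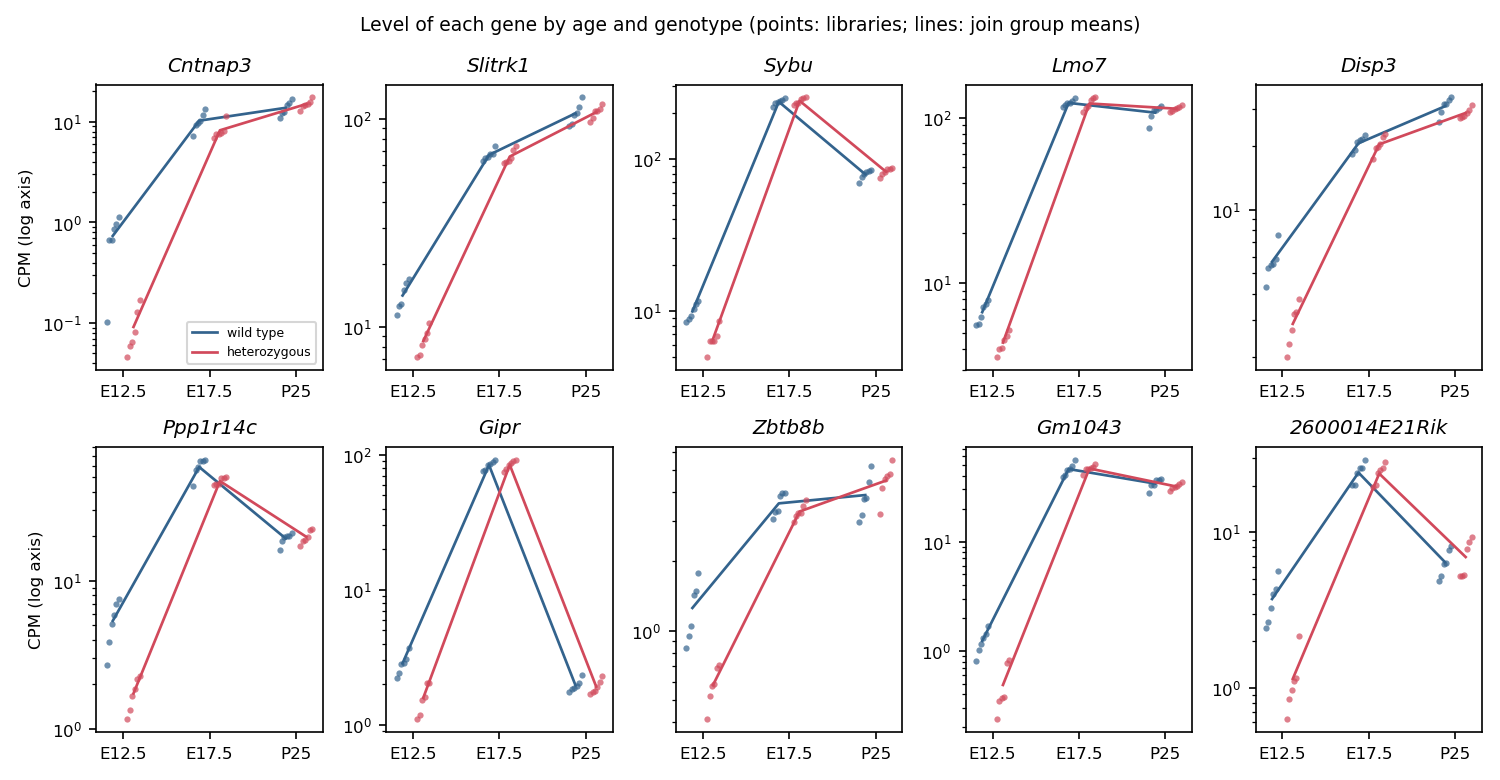
Level of each of the 10 genes in CPM (logarithmic vertical axes) by age in wild type (blue) and heterozygous (red) libraries, with points for libraries and lines joining group means. All 10 rise from E12.5 to E17.5. The mean of Gipr is 2.85 CPM at E12.5 and 1.96 CPM at P25 in wild type libraries. In heterozygous libraries it is 1.59 and 1.92 CPM, and P25 was not tested against E12.5.

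Gm1043 and Gipr were among the genes with the largest rises. In wild type mice the level of Gm1043 went from a median of 1.23 CPM at E12.5 to 45.8 CPM at E17.5, and only 0.706% of all genes tested had an estimate as high. Gipr went from 2.85 to 85.2 CPM, with 0.910% of genes rising as much. Sybu went from 9.77 to 240 CPM and Lmo7 from 6.71 to 122 CPM, log2 fold changes of 4.58 and 4.20. At the other end, Zbtb8b went from 1.24 to 3.59 CPM and Disp3 from 5.50 to 21.1 CPM, rises that 13.3% and 10.2% of all genes matched.

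After E17.5 the 10 genes parted. Between E17.5 and P25, 41.3% of all genes tested were called higher and 41.1% lower in wild type mice, and 41.1% higher and 41.4% lower in heterozygous mice. Of the 10, 3 rose and 6 fell in wild type mice, and 4 rose and 5 fell in heterozygous mice. DESeq2 called 8 of the 10 in wild type mice and 9 in heterozygous mice.

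Slitrk1, Disp3 and Cntnap3 rose further. In wild type mice Slitrk1 rose by 0.66 on the log2 scale (adjusted p 8.0e-09 by edgeR's quasi-likelihood test), from a median of 66.4 to 105 CPM, and Disp3 rose by 0.59 (adjusted p 1.3e-06), from 21.1 to 31.7 CPM. Cntnap3 rose by 0.42 (adjusted p 0.0152), from 9.99 to 13.7 CPM. That rise was no longer past the threshold without E17.5 wild type female 3 (0.34, adjusted p 0.0519) or with wild type libraries alone (adjusted p 0.0681). In heterozygous mice the same 3 genes rose by 0.71, 0.49 and 0.87.

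Gipr fell the most, by 5.43 on the log2 scale in wild type mice (adjusted p 1.5e-30, edgeR's quasi-likelihood test) and fell by 5.45 in heterozygous mice. Its P25 level was 1.74, 1.91 and 2.36 CPM in wild type and 1.70, 1.84 and 2.29 CPM in heterozygous libraries, so that this receptor was high at E17.5 alone among the 3 ages. 2600014E21Rik, Ppp1r14c and Sybu also fell, with log2 fold changes of -1.90, -1.60 and -1.58 in wild type mice and of -1.79, -1.25 and -1.55 in heterozygous mice. Gm1043 fell less, at -0.44 and -0.55. Lmo7 fell by 0.20 in wild type mice (adjusted p 0.0087), a call lost when size factors by relative log expression were used (-0.10, adjusted p 0.158), and its value of -0.10 in heterozygous mice did not pass (adjusted p 0.165). Zbtb8b rose by 0.45 in heterozygous mice (adjusted p 0.0073), while its value of 0.13 in wild type mice did not pass (adjusted p 0.428), and the difference between the 2 was not tested.

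The relatives and partners of these genes were examined in 8 lists with 33 genes. Of the 27 tested at E12.5, 0 were called different between genotypes by edgeR's quasi-likelihood test and 9 had an unadjusted p under 0.05, all lower in heterozygotes, where 9.17% of all genes were lower at that p. Their median log2 fold change was -0.15, against -0.00 over all genes tested. In wild type mice 20 of 30 tested rose and 5 fell between E12.5 and E17.5. Among contactin-associated proteins, Cntnap5c (7.22), Cntnap5b (3.53), Cntnap5a (3.12) and Cntnap4 (1.37) rose as Cntnap3 did, and Cntnap2 (-1.96) and Cntnap1 (-1.20) fell. In the Slitrk family, Slitrk3 (2.82), Slitrk4 (1.24), Slitrk5 (1.08) and Slitrk2 (0.79) rose, and Slitrk6 did not pass (-0.69, adjusted p 0.170). Among the Dispatched genes, Disp2 rose by 2.66 and Disp1 fell by 0.81. Between E17.5 and P25, 20 of the 30 rose and 7 fell in wild type mice, where Snph, the syntaphilin gene whose product holds mitochondria in axons, rose by 4.10 while Sybu fell.

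The relation of the 10 genes to Dlx1 was then examined in the 12 E12.5 libraries. Dlx1 (ENSMUSG00000041911) was at 2.09, 2.34, 3.62, 15.6, 39.0 and 73.2 CPM in wild type libraries and at 0.366, 0.408, 0.613, 8.83, 10.3 and 15.3 CPM in heterozygous libraries. Each genotype thus held 3 libraries with little Dlx1 and 3 with much more, and the genotypes overlapped. Because the libraries fall into separate sets, no correlation coefficient with Dlx1 is given, and the slopes below rest mostly on the step between low and high libraries. The later libraries were far more alike, from 45.4 to 71.1 CPM of Dlx1 at E17.5 and from 14.9 to 19.9 CPM at P25.

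With genotype and sex in the fit, 0 of the 10 genes had a slope on Dlx1 past the threshold at E12.5 by edgeR's quasi-likelihood test, where 0.778% of all genes tested (157 of 20170) had one. A doubling of Dlx1 went with a change of -2.26% (Cntnap3) to 3.21% (2600014E21Rik and Disp3) in the level of the 10 genes, and the lowest adjusted p was 0.640. At an unadjusted p under 0.05 the count was 0 as well, against 10.2% of all genes, and DESeq2 called 0. The number of all genes called ran from 18 to 259 as each library was left out. The 95% intervals included 0 for all 10. They were narrower for Slitrk1 (-1.82% to 5.71% per doubling), Sybu (-1.05% to 6.82%) and Lmo7 (-1.01% to 6.37%), and wider for Cntnap3 (-15.7% to 13.3%) and Gm1043 (-7.95% to 14.7%). Dlx1 spanned several doublings within each genotype, so a bound per doubling adds up over that span. By contrast, 10 of the 15 other ventral and interneuron markers that were tested had a slope past the threshold, from 0.73 (Sp9) to 1.14 (Gsx2) on the log2 scale per doubling, with Dlx2 at 0.89, Gad1 at 0.79 and Gad2 at 0.89. Lhx6 (-0.04), Sst (-0.01), Maf (0.00), Npy (0.15) and Six3 (0.55) did not pass. Dlx1 thus stood for part of this list only, and the relation of the 10 genes to the other part was not tested. Among the 33 relatives, Ptch1, the Hedgehog receptor, had a slope of 0.15 (adjusted p 0.0233).

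**Figure D4:**
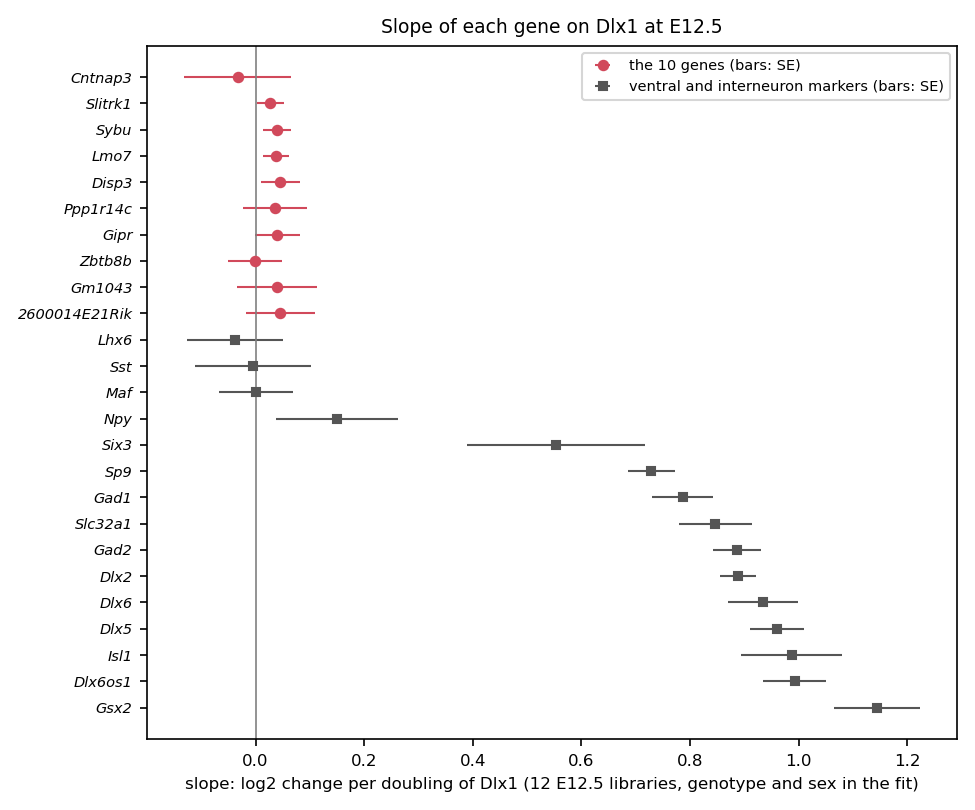
Slope of each gene on Dlx1 at E12.5, as the log2 change per doubling of Dlx1 (horizontal axis), from 12 libraries with genotype and sex in the fit, with bars for the standard error. The 10 genes (red circles) lie between -0.03 and 0.05, and 10 of the 15 ventral and interneuron markers (grey squares) lie between 0.73 and 1.14.

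The difference between genotypes at E12.5 was also fitted with Dlx1 as a covariate. These values chose the genes and are given as a description, from which nothing is read. The median log2 fold change of the 10 was -1.01 with Dlx1 in the fit and -1.05 without it. Sybu changed from -0.60 to -0.52, Disp3 from -0.99 to -0.91 and Cntnap3 from -2.99 to -3.06. The wild type library with the least Dlx1, female 2 at 2.09 CPM, had a mean log2 level of the 10 genes 0.06 above the wild type mean, and the heterozygous library with the most, male 2 at 15.3 CPM, lay at -0.80 relative to it.

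**Figure D5:**
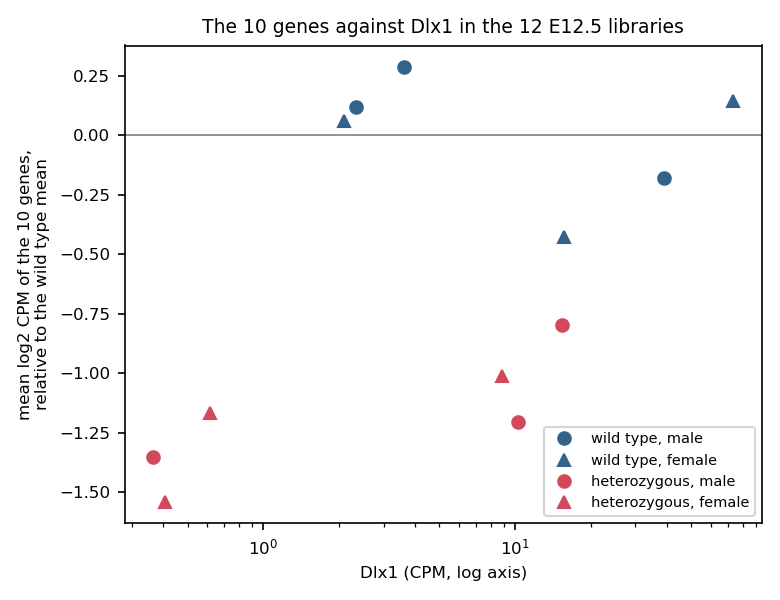
Mean log2 CPM of the 10 genes relative to the wild type mean (vertical axis) against the level of Dlx1 in CPM (logarithmic horizontal axis) in the 12 E12.5 libraries, with circles for males and triangles for females. All 6 heterozygous libraries lie between -1.54 and -0.80, below all 6 wild type libraries, which lie between -0.43 and 0.29. The genes were chosen on this difference.

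Slopes were also fitted within each genotype, an analysis added after the data had been seen. Within wild type libraries 7 of the 10 slopes were negative and within heterozygous libraries 8 were positive. Most of the 10 varied together across these libraries, as described below, so these signs are not separate observations. The median slope over all genes was 0.0006 on the log2 scale within wild type and -0.0003 within heterozygous libraries. By edgeR's quasi-likelihood test 0 of the 10 passed the threshold in either, where 0.164% and 0.0843% of all genes did, and 1 and 3 of the 10 had an unadjusted p under 0.05, against 9.80% and 8.46% of all genes. The largest were those of Gm1043, with a change of -10.7% per doubling of Dlx1 in wild type (interval -19.6% to -0.839%, adjusted p 0.455) and 18.2% in heterozygous libraries (interval 6.35% to 31.3%, adjusted p 0.405). The heterozygous libraries with the highest Gm1043, male 2 and female 3, are also 2 of the 3 with high Dlx1. Gipr and Disp3 had intervals above 0 within heterozygous libraries, at 10.6% (4.04% to 17.48%) and 9.02% (2.56% to 15.9%) per doubling, with adjusted p of 0.385 and 0.479. The difference in slope between genotypes passed for 0 of the 10, with 0% of all genes past the threshold, and the lowest adjusted p among the 10 was 0.601 (edgeR's quasi-likelihood test). At an unadjusted p under 0.05 there were 3, Disp3, Gipr and Gm1043, with Gm1043 lowest at 0.0015, against 6.42% of all genes.

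At the later ages, where Dlx1 varied little, slopes on Dlx1 passed the threshold for 0 of the 10 at E17.5, with 0.111% of all genes past it, and for 0 of the 10 at P25, with 0% of all genes past it (edgeR's quasi-likelihood test). Cntnap3 had the lowest p at E17.5, 0.003 unadjusted and 0.458 adjusted, with a slope of 0.90 (interval 0.35 to 1.44). At an unadjusted p under 0.05 there were 2 at E17.5 (Cntnap3 and Gm1043) and 1 at P25 (Lmo7), against 6.29% and 3.71% of all genes, and DESeq2 called 0 at both ages.

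Male and female libraries did not differ past the threshold for any of the 10 at any age, where 0.0694%, 0.0843% and 0.0669% of all genes did, in order of age (edgeR's quasi-likelihood test). DESeq2 called 0 of the 10 at each age, and at an unadjusted p under 0.05 there was 1 of the 10 (Gm1043 at P25, where 2.97% of all genes were under it). The lowest unadjusted p among the 10 at E12.5 was 0.0877, for Cntnap3, with a male against female log2 fold change of 0.75 (interval -0.13 to 1.64). The genotype difference did not vary with sex past the threshold for any of the 10 at any age, with 1 of the 10 at an unadjusted p under 0.05 (Lmo7 at P25, against 1.38% of all genes) and 0% of all genes past the threshold at any age, and at E12.5 the lowest unadjusted p was 0.089, for Zbtb8b.

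Once the means of genotype and sex were taken out, most of the 10 varied together across the 12 E12.5 libraries. Of their 45 pairs, 35 had a positive correlation, with a median r of 0.543, against -0.003 over all pairs of tested genes. These are descriptions over 12 libraries, which share depth and dissection within each library. The closest pair was 2600014E21Rik and Sybu (r = 0.956), the long non-coding RNA and the transport adaptor, and the most opposed was Gipr and Zbtb8b (r = -0.579). Zbtb8b alone ran against the mean of the others (r = -0.400), while 2600014E21Rik (0.922), Sybu (0.932) and Slitrk1 (0.840) followed it closely. The mean profile was highest in heterozygous male 2 and heterozygous female 3 and lowest in heterozygous female 1 and wild type female 3.

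Among genes of at least 1 CPM, those whose residual profile was most like the mean of the 10 included Kctd4 (r = 0.991), Nol4 (r = 0.973), Slc8a1 (r = 0.972) and Galnt17 (r = 0.964), over 12 libraries. Slc8a1 encodes a sodium-calcium exchanger. These 4 had negative genotype estimates at E12.5, from -0.64 (Galnt17) to -0.32 (Kctd4), and positive wild type estimates between E12.5 and E17.5, from 1.93 (Galnt17) to 4.35 (Slc8a1).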

How the data were processed

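The authors deposited 1 table per age of gene-level read counts, whole and not normalized, for 55359 genes in 12 libraries each. Per the submitters' processing notes, STAR 2.7.9a, Subread and featureCounts were used with genome build mm39. No source used here gives the annotation release or strand setting. The column names matched the labels' descriptions, except 1 with another replicate digit, placed by its library number together with sex and genotype. At E17.5 most of these digits differ from the replicate numbers in the sample titles, which are the ones used here.

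Genotype, sex and Dlx1 slopes were fitted per age with edgeR 4.0.16 (R 4.3.3): filterByExpr by genotype and sex, TMM scaling, robust quasi-likelihood fit with sex as covariate, Benjamini-Hochberg adjustment over all genes tested, threshold 0.05. Changes with age came from 1 fit of 36 libraries, with sex within age. Levels are CPM over all 36 libraries. The scripts were tested on simulated counts. Promoter windows are from RefSeq (GRCm38.p6). The 10 genes and the lists were chosen with earlier results of these data known. Genes named are the 10, Chd8, Dlx1, the 5 most alike (1 of them is not reported here), markers and relatives. A planned correlation with Dlx1 within each genotype is not given, because the libraries of each genotype fall into 3 low and 3 high ones. Alternatives included DESeq2 1.42.0, other scalings, filters and covariates, and leaving out each library. No library pair among the 90 within groups agreed within sampling noise. Per the labels, the libraries are of matched pairs of embryos or mice, and the litter of each is not named.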

Additional observations from a re-analysis of the deposited data

Results flagged for a closer look

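The 10 genes and Dlx1 were examined in 66 groups of 6 libraries, 1 per gene, age and genotype, for a library far from the others by Dixon's test, where chance flags about 1 in 20 groups. A gap was found in 2. Cntnap3 at E17.5 was 11.45 CPM in heterozygous male 3, against 8.04 CPM in the next heterozygous library. 2600014E21Rik at E12.5 was 2.1507 CPM in heterozygous male 2, against 1.1471 CPM in the next.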

How the results depend on the processing

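The 10 genes had a median log2 fold change between genotypes at E12.5 of -1.05, which ran from -1.05 to -0.85 over 9 other settings and from -1.11 to -0.99 as each library was left out. The lowest size, -0.85, came from a filter of at least 1 CPM in 6 libraries, which kept 7 of the 10. At E17.5 the median ran from -0.0342 (without wild type female 2) to 0.00204 (without wild type female 3) and at P25 from 0.04 to 0.06 without 1 library. The counts of the 10 genes called for age were 10 in every setting tried from E12.5 to E17.5 and 8 or 9 from E17.5 to P25, and those for Dlx1 slopes and sex were 0 in every setting tried. No label ties a replicate number to a litter. At E17.5 and P25 the libraries of 1 replicate number have consecutive library numbers, which holds only in part at E12.5. Whether such sets are litters is not given, and values by replicate number at E12.5 may not be those of true pairs. The rule for pairs, a correlation of deviations over 0.1 in every same-numbered pair of both genotypes, was not met at any age. Correlations were -0.227 to 0.102 at E12.5 (1 of 6 pairs over 0.1), -0.00951 to 0.255 at E17.5 (3 of 6) and 0.0238 to 0.302 at P25 (5 of 6), and each library correlated best with its own number in 1, 4 and 5 of 6 cases at E12.5, E17.5 and P25. With the replicate number as a block, the E12.5 median was -1.03. Genotype calls of the 10 genes with the block are not given. No call of the 10 genes for age, sex or Dlx1 slope changed, but counts over all genes did. Genotype calls were 89 with the block and 20 without it at E17.5, 32 and 1 at P25, and 41 and 43 among genes lower at E12.5. Sex calls at E17.5 were 45 and 16, and Dlx1 slopes called were 0 and 21 at E17.5, and 1 and 0 at P25. The number of all genes called lower at E12.5, 43 here, was 26 without robust estimation, 99 without a filter, 115 with the filter of 1 CPM, 133 without the sex term, 692 with DESeq2 and 924 with 36 libraries in 1 fit. Slopes called on Dlx1 at E12.5, 157 here, were 479 with DESeq2, 18 without wild type female 1 and 259 without wild type male 3. The correlation of each gene with Dlx1 within a genotype is not given, and neither are its alternatives. Depth limits Cntnap3 at E12.5, at 2 to 54 reads per library.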
